A study of Aliger gigas with 7 samples.

Results

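Enzymes of glycolysis, the citrate cycle and the neighbouring sugar pathways were followed in the ovary of the queen conch, a large herbivorous marine snail. They were taken by name: 71 of the 4328 gene titles in the deposited table contain the name of a sugar-metabolising enzyme or substrate (hexokinase, aldolase, enolase, pyruvate, citrate synthase, succinyl, malate, transaldolase, glycogen and similar words). By their full names, 55 of the 71 belong to sugar metabolism. They comprise 23 titles of glycolysis and gluconeogenesis, 5 of pyruvate oxidation, 18 of the citrate cycle and malate, 4 of the pentose phosphate pathway, 3 of glycogen breakdown and 2 outside these lists. Another 14 share only a word with them and name enzymes of other pathways, and 2 join several unrelated names. A title names the closest match to a conch sequence, sometimes a plant or fungal protein, which does not establish it as the conch orthologue, and 1 gene may appear under several titles.

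Glycolysis splits glucose into pyruvate in the cytosol, starting with its capture by hexokinase and ending with pyruvate kinase. The pyruvate dehydrogenase complex turns pyruvate into acetyl-CoA, which the citrate cycle of the mitochondrion oxidises to feed the respiratory chain. The pentose phosphate pathway branches off at glucose-6-phosphate and yields NADPH and ribose, and gluconeogenesis runs the glycolytic route backwards through phosphoenolpyruvate carboxykinase.

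Ovaries came from 7 wild, untreated conchs of the Florida Keys, all labelled female and each measured on 1 single-colour (Cy3) oligonucleotide array. The reference group held 4 normal females (OF1 to OF4) from the offshore site Pelican Shoal, where conchs reproduce normally. The nearshore group, from Tingler Island, where reproduction is impaired, held 2 normal females (NF1 and NF3) and an apparent imposex female (NM3), a female with male sexual characters. Each group came from 1 site, so site and any handling that went with it cannot be told apart.

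Array means lay between 5.83 and 5.89 on the log2 scale. NM3 had the lowest, at 5.83, against 5.88 to 5.89 in the other animals. Over the whole table, 45 titles lacked a value in NM3, against 0 to 3 in each other animal. All 71 titles had a value in all 7 animals. Vitellogenin 2, the egg yolk precursor, was at 16.81 to 17.34 offshore and at 12.69 in NF1, 17.03 in NF3 and 16.35 in NM3. The summed signal of the 8 ovary and germ line titles spanned 17.11 to 17.51 offshore and 13.71 to 17.19 nearshore. None of the 8 passed the test used below (limma, adjusted p under 0.05), against 9.24% of all titles. The mean was lower nearshore for 5 of the 8 and higher for 3, with a median log2 difference of -0.88. Piwi-like 1 had the smallest p of the 8, with a difference of -1.92 (limma adjusted p = 0.0580) and no overlap between groups. Because RNA came from whole tissue, fewer cells of a type and less RNA per cell cannot be told apart.

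Against this background, 2 sugar enzymes rose nearshore and 2 fell. Hexokinase A and a beta chain of succinyl-CoA ligase rose, and transaldolase and a phosphoglycerate mutase fell, each by 2.37-fold or more. The test was limma's moderated test at a Benjamini-Hochberg adjusted p under 0.05 over all 4328 titles. The 4 titles were 5.63% of the 71, against 9.24% of all titles (3.90% higher and 5.34% lower nearshore). The other 67 did not pass. Of the 71 mean differences, 35 were positive and 36 negative, with a median of -0.0032 on the log2 scale against -0.0064 over all titles. In 17 of the 71 (23.9%, against 24.4% of all titles) the 4 offshore and 3 nearshore values did not overlap, 11 being higher and 6 lower nearshore. At an unadjusted p under 0.05 there were 16 (22.5%, against 26.1%). All these shares lie near or below those of the whole table.

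**Figure D1:**
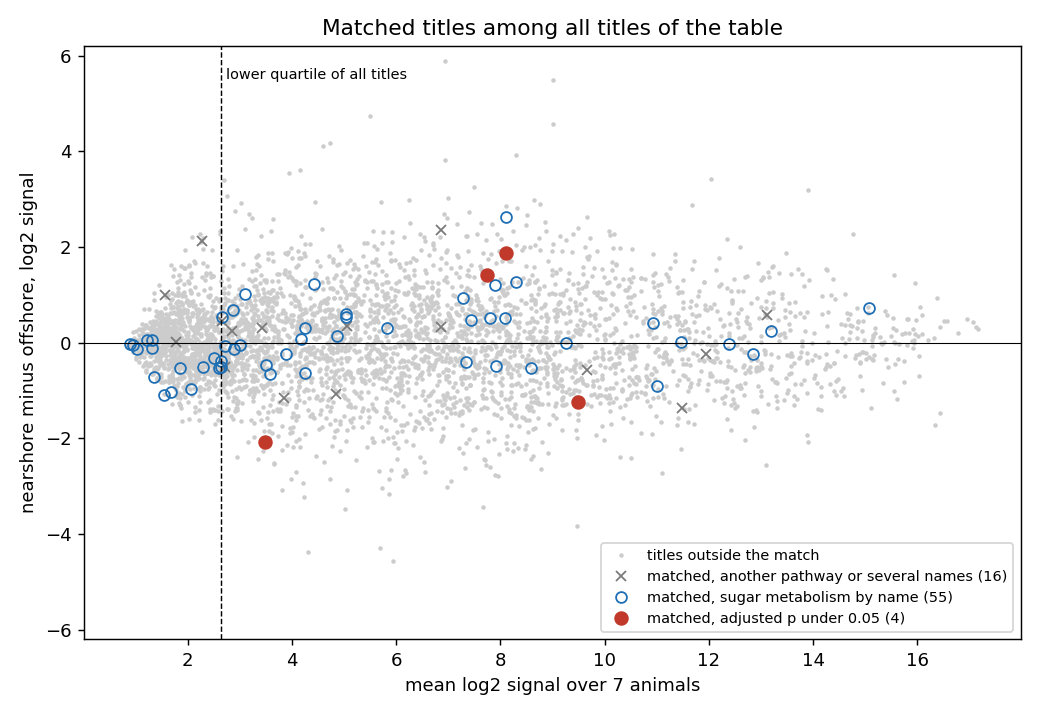
Mean log2 signal over the 7 animals (horizontal axis) and nearshore minus offshore difference in log2 signal (vertical axis) for all 4328 titles (grey), the 16 matched titles of other pathways or several names (crosses) and the 55 of sugar metabolism (circles, with the 4 that passed filled in red). The differences of the 71 lie between -2.08 and 2.63, inside the -4.56 to 5.88 of all titles, and the 17 left of the dashed line, the lower quartile of all title means at 2.63, include none that passed.

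Entry into glycolysis showed the steepest rise that passed. Hexokinase A, which phosphorylates glucose and so holds it in the cell, measured 6.83, 7.36, 7.59 and 7.42 in OF1 to OF4 and 8.73, 9.83 and 8.96 in NF1, NF3 and NM3 (log2 signal, as for all levels below). All 3 nearshore animals lay above every offshore animal, with NF3 the highest. The mean went from 7.30 ± 0.33 (SD, n = 4) to 9.17 ± 0.58 (SD, n = 3), a log2 difference of 1.87 (SE 0.34, limma adjusted p = 0.0235), or 3.67-fold. It passed in 4 of the 7 fits that left out 1 animal, not in those without OF2, OF3 or OF4, and ranged from 1.55 to 2.10 over them. A further title, Hexokinase 2, measured 6.996, 6.84, 6.60 and 7.08 offshore and 7.32, 8.59 and 7.55 nearshore. Here too NF3 was highest and the groups did not overlap, but the difference of 0.94 (95% interval 0.13 to 1.76, limma adjusted p = 0.139) did not pass.

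Of the next steps, Glucose-6-phosphate Isomerase, which makes fructose-6-phosphate, had group means that differed by 0.53, with NM3 alone above the others at 4.18 against 1.76 to 2.86. The committing enzyme 6-phosphofructokinase read between 0.94 and 1.39 in all 7 animals, at the dim end of the table, where no detection call shows whether a probe was above background. Aldolase C, which cleaves fructose bisphosphate into triose phosphates, measured 7.94, 7.43, 7.69 and 7.94 offshore and 9.68, 9.30 and 8.07 nearshore. NF1 and NF3 stood well above the offshore animals and NM3 only just. The difference of 1.27 (SE 0.41, limma adjusted p = 0.101) did not pass with all 7 animals, and was 1.74 (adjusted p = 0.0302) without NM3. A dimmer Fructose-bisphosphate Aldolase title differed by -0.14. Triosephosphate Isomerase 1, which interconverts the triose phosphates, lay between 11.99 and 13.21 with overlapping groups and a difference of -0.24 (95% interval -1.11 to 0.64).

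The oxidative step that follows leaned the other way. Glyceraldehyde-3-phosphate Dehydrogenase, which makes the first high-energy phosphate and NADH of the pathway, was at 11.29, 11.33, 11.43 and 11.55 offshore and at 10.07, 11.07 and 10.35 nearshore. Every nearshore animal was below every offshore one, NF3 least so. The difference of -0.90 (95% interval -1.58 to -0.23, limma adjusted p = 0.101) did not pass. Its offshore SD of 0.12 was well under its nearshore SD of 0.51. Titles for phosphoglycerate kinase, which makes ATP in the next step, were dim and differed by -0.12 (PGK1) and -0.51 (Testis Specific) with overlapping groups.

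Phosphoglycerate mutase, which shifts the phosphate of 3-phosphoglycerate to the neighbouring carbon, was named by several titles with unlike values. The title Phosphoglycerate Mutase measured 9.50, 9.97, 10.57 and 10.04 offshore and 8.73, 9.05 and 8.53 nearshore, without overlap. It fell from 10.02 ± 0.44 to 8.77 ± 0.26, a difference of -1.25 (SE 0.31, limma adjusted p = 0.0484), 2.37-fold. This call is the least secure of the 4: it passed in none of the 7 fits without 1 animal, and its adjusted p was 0.0511 under median centring, 0.0557 under cyclic loess normalization and 0.0581 with array weights. Phosphoglycerate Mutase 2, named for the muscle form in vertebrates, measured 9.47, 8.64, 9.42 and 9.49 offshore and 10.32, 8.90 and 8.54 nearshore. NF1 was the highest of the 7 and NM3 the lowest, and the difference was 0.00 to 2 decimals (95% interval -1.09 to 1.09). Relative to the offshore mean of each title, NF1 was 2.35 higher for Phosphoglycerate Mutase 2 than for Phosphoglycerate Mutase. Phosphoglyceromutase differed by 0.30 and a cofactor-independent, plant-type mutase title by -0.33, both with overlapping groups.

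Enolase, which dehydrates 2-phosphoglycerate to phosphoenolpyruvate, had its brightest title in Enolase 3, at 14.87, 14.90, 14.54 and 14.75 offshore and 15.70, 15.54 and 15.22 nearshore. The groups did not overlap and differed by 0.72 (SE 0.23, limma adjusted p = 0.104); this passed only with a mean-dependent robust prior (adjusted p = 0.0364). The title Enolase measured 4.23, 4.44, 3.79 and 3.12 offshore and 4.50, 4.67 and 6.17 nearshore, with NF1 and NF3 just above the offshore animals and NM3 far above, a difference of 1.22 (adjusted p = 0.177). The fungal-type title ENO_ALTAL Enolase scattered from 1.69 to 5.98 with overlapping groups. Pyruvate Kinase, Muscle, which makes pyruvate and ATP, measured 7.88, 7.43, 7.37 and 7.62 offshore and 8.04, 7.93 and 8.32 nearshore, a difference of 0.52 (95% interval -0.04 to 1.08) without overlap. The fungal-type KPYK_TRIRE Pyruvate Kinase differed by -0.24 with overlap.

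**Figure D2:**
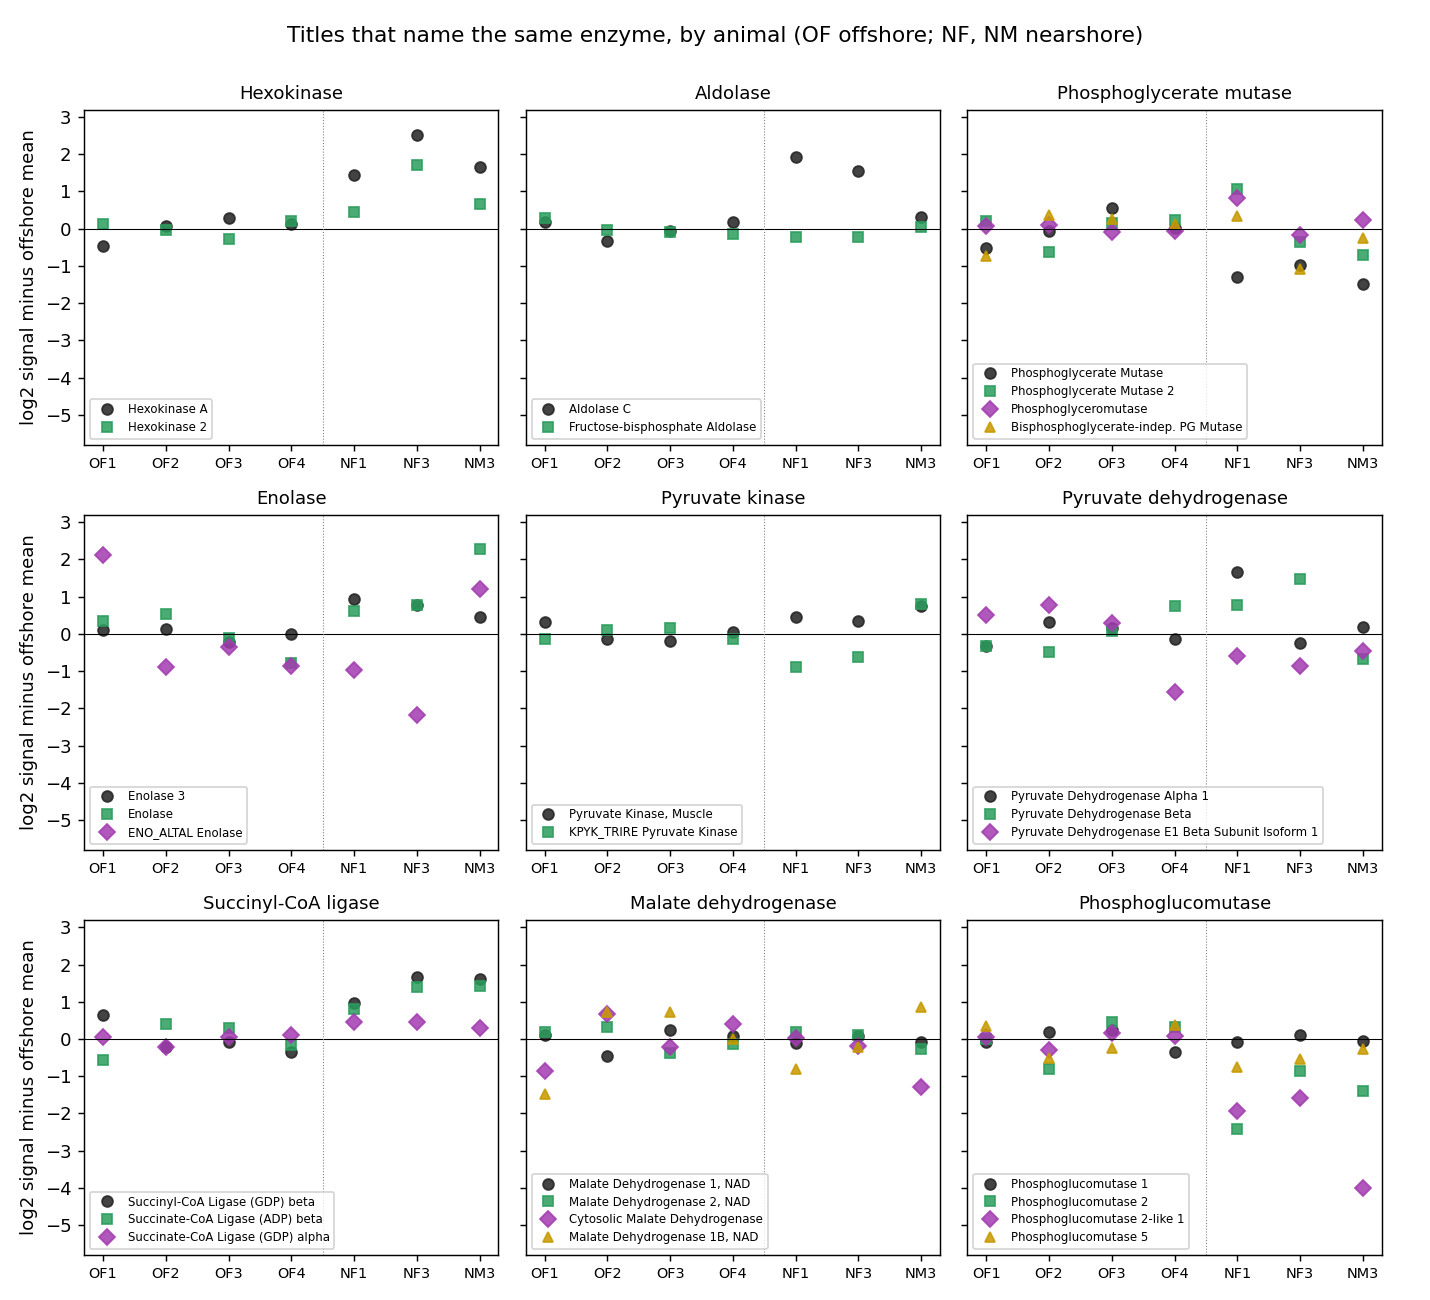
Log2 signal of each animal minus the offshore mean of the same title (vertical axis), by animal (horizontal axis), for 9 enzymes named by several titles; each marker shape is 1 title and the dotted line divides offshore from nearshore. Both hexokinases and all 3 succinyl-CoA ligase titles lie above their offshore mean in every nearshore animal, whereas Phosphoglycerate Mutase and Phosphoglycerate Mutase 2 lie 2.35 apart in NF1.

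At the branch to gluconeogenesis, the Phosphoenolpyruvate Carboxykinase title, the enzyme that makes phosphoenolpyruvate from oxaloacetate, had the largest mean difference of the 71 with all 7 animals. It measured 6.45, 9.39, 6.11 and 5.99 offshore and 10.11, 6.66 and 12.05 nearshore. NM3, NF1 and OF2 were high and the other 4 animals low, so the groups overlapped. The difference of 2.63 had a 95% interval from -0.53 to 5.78 (limma adjusted p = 0.271) and ranged from 1.40 without NM3 to 4.10 without NF3 over the fits that left out 1 animal. Without NM3, Hexokinase A differed by more, 1.98. Lactate Dehydrogenase D, which oxidises D-lactate to pyruvate, lay between 3.68 and 4.49 in all animals and differed by 0.08. Of the 23 titles of glycolysis and gluconeogenesis, 1 rose and 1 fell (8.7%, against 9.24% of all titles), and 11 mean differences were positive and 12 negative. Groups did not overlap in 8 (34.8%), against 24.4% of all titles. Among titles above the lower quartile of signal, where 19 of the 23 lay, the share was 30.4%. Of the 8, 6 were higher and 2 lower nearshore, against 470 higher and 584 lower over all titles.

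Markers of other tissues that a dissection can hold were read beside these values. Of 22 muscle titles 3 rose, namely Tropomyosin 1 (difference 2.89), a Myosin Light Chain (2.72) and a myosin heavy chain named as non-muscle (1.99), and 1 fell, an Adenylosuccinate Synthetase named as non-muscle (against 3.90% higher and 5.34% lower of all titles). The mean was higher nearshore for 15 of the 22 and lower for 7, with a median difference of 0.27. Their summed signal was 12.05 to 12.70 in the offshore and 12.90 to 13.42 in the nearshore animals, without overlap, and the lowest single value was 0.71. Of 34 digestive gland titles 2 rose, Phospholipase C, Beta 4 (2.24) and Carboxypeptidase A1 (1.67). Another 2 fell, Phospholipase D2 (-1.87) and Serine Carboxypeptidase 1 (-1.83). Of 11 haemocyte titles 1 rose, Fibrinogen C Domain Containing 1 (difference 4.73), and 1 fell, Collectin Sub-family Member 11 (-1.48). Over all titles, 3.90% were higher and 5.34% lower nearshore by the same test. The summed signals of these lists overlapped between groups: 9.79 to 14.87 offshore and 10.48 to 13.93 nearshore for digestive gland, and 17.31 to 18.14 and 16.41 to 17.50 for haemocytes. These lists were drawn by search words, and some members name other proteins. Plectin 1 is among the haemocyte titles, and Phospholipase A2-activating Protein and Carbamoyl-phosphate Synthetase 2 are among the digestive gland titles. The counts and sums are therefore not specific to these tissues. The part of these tissues in the sugar enzyme values was not tested.

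**Figure D3:**
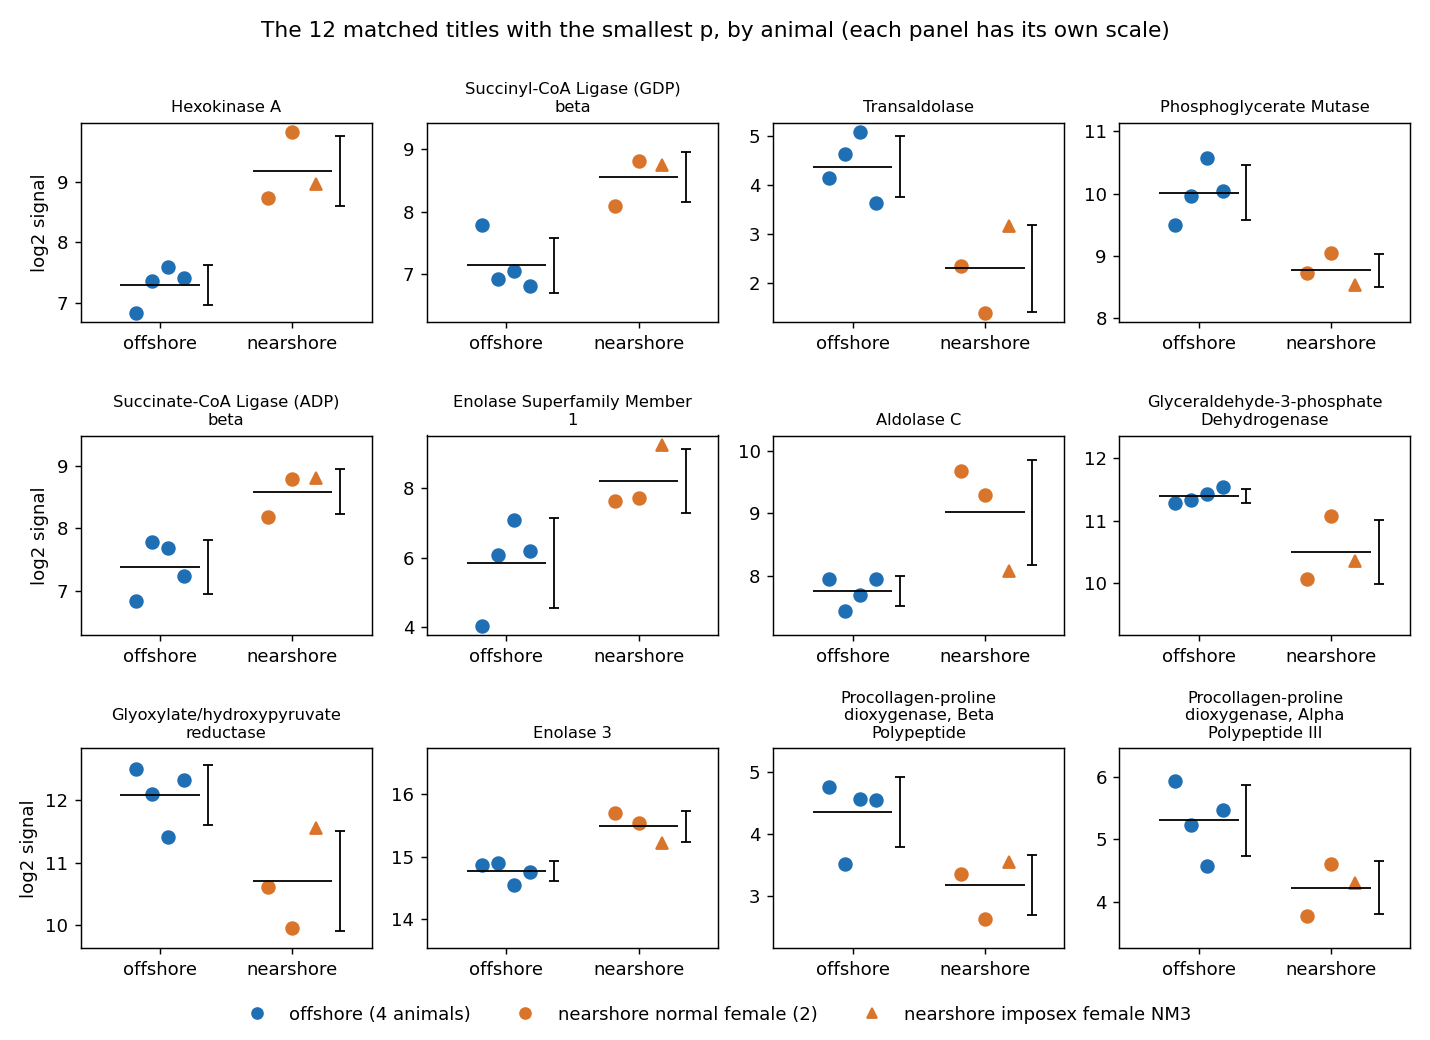
Log2 signal (vertical axis, scaled separately in each panel) of each animal for the 12 matched titles with the smallest p; each point is 1 animal (triangle, NM3), horizontal lines are group means and brackets the mean ± SD. Hexokinase A and both succinyl-CoA ligase beta titles are higher in all 3 nearshore animals, and Transaldolase and Phosphoglycerate Mutase are lower in all 3.

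Pyruvate oxidation gave no call: 0 of its 5 titles passed in limma (against 9.24% of all titles), and 0 had an unadjusted p under 0.05 (against 26.1%). Pyruvate Dehydrogenase Alpha 1, of the complex's decarboxylating component, was highest in NF1 at 6.48, against 4.48 to 5.13 in the other animals. Pyruvate Dehydrogenase Beta was highest in NF3 at 9.32 and lowest in NM3 at 7.18. Pyruvate Dehydrogenase Kinase, Isozyme 2, which shuts the complex off by phosphorylation, measured 4.87, 1.37, 1.77 and 2.64 offshore and 3.38, 3.79 and 3.89 nearshore. The nearshore animals lay close together inside the wide offshore range, and the difference was 1.02 (adjusted p = 0.474).

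In the citrate cycle, the step that makes ATP or GTP from succinyl-CoA carried the only call. Succinyl-CoA Ligase [GDP-forming] Beta-chain measured 7.78, 6.92, 7.05 and 6.80 offshore and 8.10, 8.81 and 8.75 nearshore. NF3 and NM3 were highest, and NF1 was above OF1 by a small margin. It rose from 7.14 ± 0.44 to 8.55 ± 0.40, a difference of 1.41 (SE 0.33, limma adjusted p = 0.0420), 2.67-fold. It passed in 1 of the 7 fits without 1 animal, the one without OF1. The title Succinate-CoA Ligase, ADP-forming, Beta Subunit measured 6.83, 7.78, 7.68 and 7.23 offshore and 8.18, 8.78 and 8.80 nearshore, again with NF3 and NM3 highest and no overlap. Its difference of 1.21 (SE 0.32, adjusted p = 0.0615) lay just outside the threshold and passed under cyclic loess normalization (adjusted p = 0.0487). The alpha subunit, which both forms of the enzyme share in vertebrates, measured 10.81, 10.55, 10.80 and 10.85 offshore and 11.22, 11.20 and 11.06 nearshore. All 3 ligase titles were thus higher in every nearshore animal than in any offshore animal, the alpha subunit by 0.41 (95% interval -0.09 to 0.90).

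The other steps of the cycle gave no call. Citrate Synthase, which joins acetyl-CoA to oxaloacetate, measured 13.02, 13.50, 12.99 and 12.83 offshore and 13.49, 13.17 and 13.32 nearshore, a difference of 0.24 (95% interval -0.35 to 0.83). The malate dehydrogenases, which interconvert malate and oxaloacetate, differed by -0.04 for Malate Dehydrogenase 1 (95% interval -0.62 to 0.55), 0.02 for Malate Dehydrogenase 2 (-0.62 to 0.65) and -0.05 for the dimmer Malate Dehydrogenase 1B. Cytosolic Malate Dehydrogenase differed by -0.48 (95% interval -1.59 to 0.63), and by -0.08 without NM3, its lowest animal. Aconitase 2, which isomerises citrate, was at 1.87 in NF3 and at 3.49 to 4.21 in the other animals. The regulatory gamma subunit of isocitrate dehydrogenase had 2 titles, with differences of -0.53 and -0.40, and in both NF1 was the lowest animal and OF4 the highest. Their deviations from the offshore means differed by at most 0.50 in any animal, with a median of 0.15.

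Several dim titles of the cycle and malate were lower nearshore without passing. An Isocitrate Dehydrogenase title measured 1.20, 1.77, 2.46 and 2.66 offshore and 1.00, 1.04 and 0.74 nearshore (difference -1.10, adjusted p = 0.122). Malic Enzyme 3, which makes pyruvate and NADPH from malate, measured 1.19, 3.12, 1.72 and 2.43 offshore and 1.18, 1.17 and 0.92 nearshore (difference -1.03, adjusted p = 0.207). Neither pair of groups overlapped, but in both the lowest offshore animal lay close to the highest nearshore one. A second malic enzyme title followed the first animal by animal, their deviations differing by at most 0.30. Fumarate Hydratase, which hydrates fumarate, and the Oxoglutarate Dehydrogenase title stood out only in OF4, at 3.83 and 5.24, against at most 1.02 and 1.80 in the other animals. Over all 18 titles of the cycle and malate, 1 rose and none fell (5.56%, against 9.24% of all titles). Of their differences, 6 were positive and 12 negative, and the median was -0.43. The negative ones include both malic enzyme titles, Malate Synthase, Cytosolic Malate Dehydrogenase, Malate Dehydrogenase 1 and Malate Dehydrogenase 1B. These were listed by the word malate or malic, which does not place them in the cycle.

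**Figure D4:**
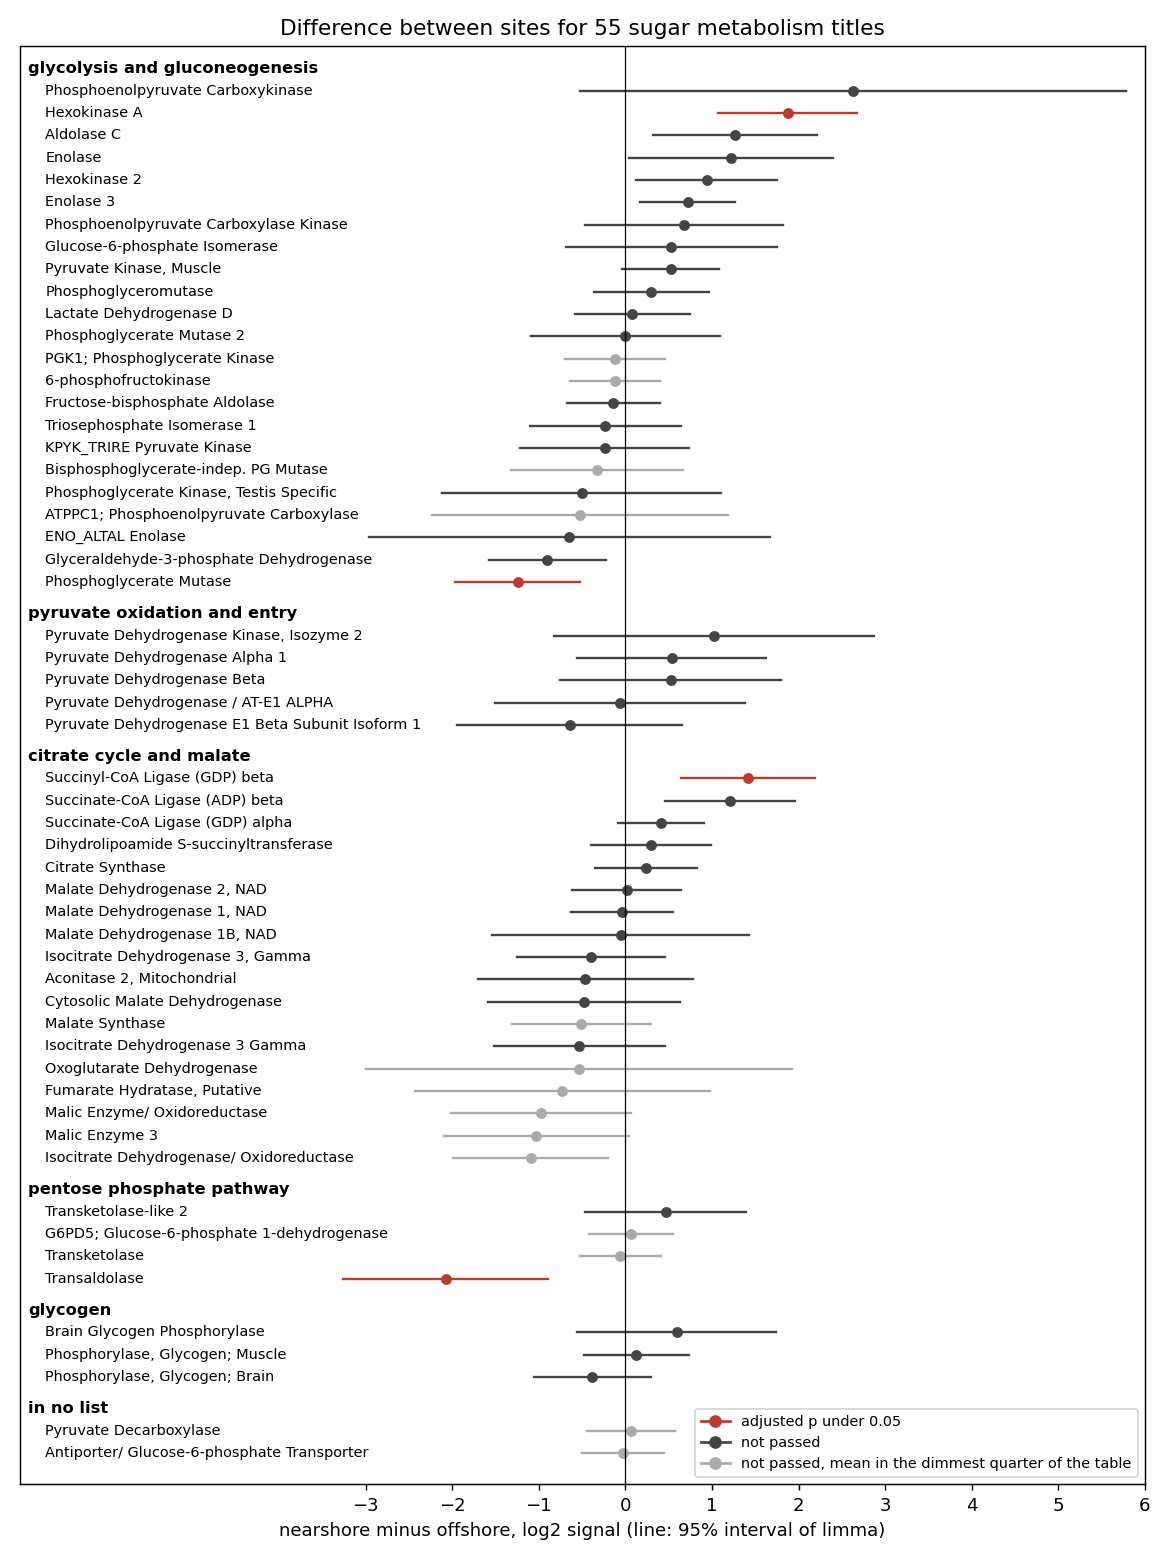
Nearshore minus offshore difference in log2 signal (horizontal axis) with its 95% interval for the 55 titles of sugar metabolism, grouped by pathway; each point is 1 title, red where it passed and light grey where its mean lay in the dimmest 25% of the table. Most intervals include 0, and the group of the citrate cycle and malate holds 12 negative and 6 positive differences.

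In the pentose phosphate pathway, Transaldolase, which moves short carbon units between sugar phosphates, measured 4.15, 4.64, 5.08 and 3.62 offshore and 2.35, 1.38 and 3.16 nearshore. NF3 was the lowest, and NM3 came nearest the offshore animals. Both NF1 and NF3 lay below the lower quartile of all title means (2.63), where no detection call shows signal over background. Transaldolase fell from 4.37 ± 0.63 to 2.30 ± 0.89, a difference of -2.08 (SE 0.51, limma adjusted p = 0.0473), 4.22-fold. It passed in 1 of the 7 fits without 1 animal, the one without NM3. Its partner enzyme by the title Transketolase-like 2, which exchanges such units too, measured 6.94, 6.70, 7.69 and 7.59 offshore and 8.10, 8.03 and 6.96 nearshore, with overlap and a difference of 0.46 (adjusted p = 0.524). The titles Transketolase and G6PD5, the plant-named entry enzyme, were dim, between 0.89 and 1.37 in all animals.

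Glycogen phosphorylase, which releases glucose-1-phosphate from glycogen, had 3 titles and no call. Of the 3 titles, 0 passed in limma (against 9.24% of all titles) and 0 had an unadjusted p under 0.05 (against 26.1%). Their differences were 0.59 for Brain Glycogen Phosphorylase, -0.38 for Phosphorylase, Glycogen; Brain and 0.13 for Phosphorylase, Glycogen; Muscle. The last was tight offshore, from 4.68 to 4.90, and reached 5.40 in NF1. Glucose-1-phosphate enters glycolysis through phosphoglucomutase. Titles with this name lie outside the 71 and were taken from a list of 95 further titles of carbohydrate metabolism. The shared name does not show that each of them carries out this step. Phosphoglucomutase 2-like 1 measured 7.66, 7.30, 7.79 and 7.69 offshore and 5.67, 6.03 and 3.62 nearshore, with NM3 lowest. The difference of -2.50 (SE 0.56, limma adjusted p = 0.0394) was a fall that passed in 2 of the 7 fits without 1 animal, those without NF3 or NM3. The other animal titles with the name phosphoglucomutase were looked up after the values were seen. Phosphoglucomutase 2 differed by -1.55 (adjusted p = 0.0809) without overlap, and Phosphoglucomutase 5 by -0.51 with overlap. Phosphoglucomutase 1 lay between 4.33 and 4.90 in all animals, a difference of -0.01 (95% interval -0.57 to 0.56).

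Of those 95 titles, 2 rose and 3 fell (5.26%, against 9.24% of all titles). Besides Phosphoglucomutase 2-like 1, 3 of them name enzymes of protein-bound sugars. O-linked N-acetylglucosamine Transferase, which places N-acetylglucosamine on nuclear and cytosolic proteins, measured 6.42, 5.63, 5.18 and 5.14 offshore and 7.35, 8.01 and 8.03 nearshore. It rose by 2.20 (SE 0.38, limma adjusted p = 0.0203) and passed in 3 of the 7 fits without 1 animal. Further titles with this name did not share the rise. The one marked as similar differed by 0.37 (limma adjusted p = 0.439) and the one marked as putative by 0.29 (limma adjusted p = 0.697), both with overlap. The gamma subunit of N-acetylglucosamine-1-phosphate Transferase, which tags enzymes for the lysosome, measured 4.74, 4.38, 4.53 and 5.33 offshore and 2.85, 2.22 and 1.55 nearshore. It fell, with a difference of -2.53 (SE 0.38, limma adjusted p = 0.0173), and passed in 5 of the 7 fits without 1 animal. Endo-alpha Mannosidase, which trims glycans in the Golgi, fell by 1.16 on the log2 scale (limma adjusted p = 0.0352). This call passed in 0 of the 7 fits without 1 animal. The title Mannosidase, Endo-alpha-like differed by -0.69 (limma adjusted p = 0.210) with overlap. The remaining rise, of 1.91 (limma adjusted p = 0.0360), was a title that joins Cytoplasmic Linker Associated Protein 1 with an insulin receptor substrate. That title passed in 2 of the 7 fits without 1 animal.

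The 14 titles that share only a word with the pathway gave 0 calls in limma (against 9.24% of all titles), and 4 had an unadjusted p under 0.05 (28.6%, against 26.1%). Enolase Superfamily Member 1, which is no glycolytic enolase, measured 4.04, 6.08, 7.09 and 6.19 offshore and 7.64, 7.72 and 9.26 nearshore (difference 2.35, adjusted p = 0.0990). NM3 was highest and OF1 lowest, without overlap. A Glyoxylate Reductase/hydroxypyruvate Reductase title measured 12.50, 12.10, 11.40 and 12.32 offshore and 10.61, 9.95 and 11.56 nearshore, with NM3 inside the offshore range. Its difference of -1.37 (adjusted p = 0.102) became -1.80 (adjusted p = 0.0495) without NM3. The 2 procollagen-proline dioxygenase titles, named for subunits of the enzyme that hydroxylates collagen, differed by -1.17 and -1.08 (adjusted p = 0.108 and 0.122), with overlap. Of the 2 titles that join several names, the one with G3P_COLGL differed by 2.12 (adjusted p = 0.128) and the one with GpdA by 0.58, both with overlap.

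Among animals, NF1 was the highest of the 7 for 16 of the 71 titles and NM3 for 14, and NM3 was also the lowest for 14. NM3 thus held an extreme in 39.4% of the 71, against 36.7% of all titles. The median deviation of the 71 titles lay between -0.09 and 0.06 in every animal.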

How the data were processed

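For each gene title and array, the authors deposited a single value, taken here as log2. Fold changes rest on that base, which was inferred from values spanning 0.27 to 17.53. How the authors normalized, corrected background and condensed probes was not given in the sources used here. Per the submitters' processing notes, scans went through Agilent Feature Extraction. The near-equal array means were taken as normalization by the authors.

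Animals were grouped by the labelled location and carry the codes of their sample titles. The 7 sample columns were all used. Titles were tested with limma 3.58.1 in R 4.3.3 (lmFit, eBayes) on 4 offshore and 3 nearshore arrays, with Benjamini-Hochberg adjustment over 4328 titles, 53 of which lack a value and none of which is among the 71. Differences are nearshore minus offshore, and intervals are at 95%. P-values measure the spread between these animals, and the number of arrays limits the precision. The fit was tested on simulated data.

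Values per animal are given for titles that passed, for the 12 smallest p-values and for titles of the same enzyme, and the rest by ranges and examples. Search words for the pathway lists, the 95 further titles and the tissue markers, and the 71 titles themselves, were chosen with earlier results of these data known. Sorting by full name followed reading the titles. Alternatives were quantile, median and cyclic loess normalization, leaving out the dimmest 25%, array weights, a mean-dependent robust prior, a pooled-variance test, an adjusted p under 0.1, only titles of sugar metabolism, and each animal left out; a fit with the digit of the animal codes as a block was added after seeing the data.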

Additional observations from a re-analysis of the deposited data

Results flagged for a closer look

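In 9 of the 71 titles 1 of the 4 offshore animals stood apart from the other 3 by Dixon's criterion, which chance meets in about 5% of groups. The share over all titles was not computed, so an excess particular to these titles is not shown. OF2 stood apart in 4. It was at 9.39 for the Phosphoenolpyruvate Carboxykinase title against 5.99 to 6.45, at 8.64 for Phosphoglycerate Mutase 2 against 9.42 to 9.49, at 4.40 for Lactate Dehydrogenase D against 4.02 to 4.08, and at 10.55 for Succinate-CoA Ligase, GDP-forming, Alpha Subunit against 10.80 to 10.85. OF4 stood apart in 3, at 5.24 for the Oxoglutarate Dehydrogenase title against 0.83 to 1.36, at 3.83 for Fumarate Hydratase against 0.87 to 1.02, and at 1.39 for 6-phosphofructokinase against 0.95 to 1.01. OF1 was at 1.36 for Fumarylacetoacetate Hydrolase against 1.06 to 1.08, and OF3 at 10.79 for Fumarylacetoacetate Hydrolase Domain Containing 2A against 12.32 to 12.55. None of the 9 titles passed in limma; of them, only the Alpha Subunit of Succinate-CoA Ligase and Fumarylacetoacetate Hydrolase had groups without overlap.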

How the results depend on the processing

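The 4 calls among the 71 titles became 0 in a pooled-variance test, in which 16 titles had an unadjusted p under 0.05. The count was 3 under median centring and array weights (2 rose and 1 fell in each), 4 under cyclic loess normalization (3 rose and 1 fell), 5 with a mean-dependent robust prior, and 4 under quantile normalization. With 1 animal left out the count ranged from 0 to 4: it was 0 without OF2, OF3 or OF4 (16, 12 and 13 at an unadjusted p under 0.05), 1 without NF1 or NF3, 2 without OF1 and 4 without NM3. Over all titles the counts without 1 animal lay between 34 (without OF4) and 302 (without NM3), against 400 with all. The 5 calls among the 95 further titles became 2 in the pooled-variance test and 8 at an adjusted p under 0.1, and ranged from 0 to 4 with 1 animal left out. Of the 71 titles, 24 changed sign in some fit without 1 animal, none of them among the 16 with an unadjusted p under 0.05. Those 16 were selected by p in the same data, which leaves little room for a change of sign. The share over all titles was not computed. The animal codes share digits (OF1 with NF1, and OF3 with NF3 and NM3), which no label ties to anything; their deviations from the group means, over 4275 titles, correlated at 0.01, -0.21 and 0.29. With this digit as a replicate block, an alternative chosen after seeing the data that leaves 2 residual degrees of freedom, limma called 0 of the 71, 0 of the 95 and 0 of all titles (9, 11 and 669 at an unadjusted p under 0.05). The table has no detection calls, so signal over background limits the dim titles.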

Other observations

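Among the 95 further titles, 3 enzymes of sugar alcohol metabolism, chosen after their values were seen, split the animals in a way that did not follow site. Sorbitol Dehydrogenase, which oxidises sorbitol to fructose, measured 13.19, 7.79, 12.77 and 8.03 in OF1 to OF4 and 13.63, 10.79 and 15.56 in NF1, NF3 and NM3. OF1, OF3, NF1 and NM3 were high, OF2 and OF4 low and NF3 between them. Sorbitol Dehydrogenase 1 measured 9.16, 5.35, 9.16 and 4.41 offshore and 8.62, 6.48 and 11.54 nearshore, with the animals in the same high and low sets. Dicarbonyl/L-xylulose Reductase measured 7.51, 5.14, 7.53 and 5.31 offshore and 6.61, 5.80 and 9.21 nearshore. NM3 was the highest animal for all 3 and OF2 or OF4 the lowest. A further title, Similar To Sorbitol Dehydrogenase, was dim, between 1.06 and 1.34 in all animals, and did not show this split. Some titles of the digestive gland list split the animals alike. Amylase, Alpha 1A measured 14.12, 5.83, 12.70 and 4.81 offshore and 9.16, 5.19 and 11.80 nearshore. Elastase 2B measured 13.32, 4.69, 12.25 and 3.78 offshore and 10.38, 4.31 and 13.24 nearshore. Chitinase 1 and a Pancreatic Triglyceride Lipase title were likewise highest in OF1, OF3, NF1 and NM3. Other titles of that list did not split so. Chymotrypsin-like measured 3.66, 5.67, 0.51 and 1.28 offshore and 4.98, 2.98 and 1.27 nearshore, and Lipase 1 was highest in OF2. On the haemocyte list, C-type Lectin Domain Family 10, Member A shared the split (12.09, 5.08, 11.08 and 5.29 offshore, 9.10, 5.24 and 12.12 nearshore). The part of other tissues in the 3 sugar alcohol enzymes was not tested. The difference between sites for Sorbitol Dehydrogenase was 2.88 (limma adjusted p = 0.346).

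The catalytic alpha 2 subunit of AMP-activated protein kinase, the cell's sensor of low ATP, was also looked up after its values were seen. It measured 5.29, 5.05, 4.68 and 4.98 offshore and 1.99, 4.23 and 2.76 nearshore, without overlap. Its difference of -2.01 (SE 0.51, limma adjusted p = 0.0519) lay just outside the threshold and ranged from -2.62 to -1.50 with 1 animal left out. The other titles of the kinase differed by 0.27 (Beta 1 subunit) and 0.10 (AMP-activated Protein Kinase), with overlap. Arginine Kinase, which buffers ATP in molluscan muscle, measured 15.27, 14.09, 14.97 and 14.63 offshore and 15.36, 15.00 and 16.09 nearshore, with overlap and a difference of 0.74 (adjusted p = 0.273).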
